A study of Mus musculus with 2 samples.

Results

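The genes described here are 40 members of the transforming growth factor-beta superfamily pathway in the hindbrain of mouse embryos at embryonic day 12.5: 13 ligands, 10 receptors, 8 Smads, 4 Id genes and 5 antagonists. They were chosen by name for their roles in the pathway, out of 55536 genes in the GENCODE M21 quantification, and all 40 were matched by symbol. PolyA-selected RNA-seq had been made from 2 pools of hindbrains of the B6NCrl strain, with pool 1 taken from 120 embryos and pool 2 from 88 embryos, male and female mixed, healthy and with no treatment or genotype contrast. The pools are the 2 replicates of 1 group: the labels number them as biological replicates but give both the same donor record, so how far the SDs hold biological spread is uncertain. So the data give levels and their spread between pools, with no test between conditions, and each SD below is over n = 2 pools of embryos.

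Ligands of this superfamily are secreted dimers that bring together type I and type II receptor kinases at the cell surface. The type II receptor phosphorylates the type I receptor, which in turn phosphorylates a receptor-regulated Smad that enters the nucleus with Smad4. BMPs act mainly through Smad1, Smad5 and Smad9, while TGF-betas and activins act mainly through Smad2 and Smad3. In the embryonic hindbrain the roof plate is a known source of BMPs, and Id genes are among the best known BMP targets. Id proteins bind E proteins and keep them from activating neuronal genes.

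The libraries held 32547454 expected counts in pool 1 and 30559015 in pool 2, of which spike-in RNAs took 3.31% and 4.25%. Of 7 hindbrain markers, 6 were at 1 TPM or more in both pools (TPM is a transcript level scaled for length and depth), with summed levels of 202 TPM in pool 1 and 258 TPM in pool 2, while 1 of 5 forebrain markers was, with summed levels of 4.23 and 4.89 TPM. The tissue also held other cells. Pool 1 and pool 2 had summed levels of 368 and 438 TPM for the 6 roof plate and choroid plexus markers. The 8 mesenchyme and meninges markers summed to 1308 and 1701 TPM, the 7 endothelial markers to 120 and 126 TPM and the 7 neural progenitor markers to 2548 and 2331 TPM. In each of these lists all genes were at 1 TPM or more in both pools. Pool 1 differed from pool 2 in skeletal muscle markers, which summed to 27.7 TPM in pool 1 and 138 TPM in pool 2 (6 of 6 lower in pool 1 by 1.5-fold or more), in cartilage markers, which summed to 440.1 and 480 TPM (2 of 4 lower in pool 1), and in surface epithelium markers, which summed to 131 and 80.4 TPM (4 of 6 higher in pool 1). No marker of these lists was at 0.

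Of the 40 genes, 39 were at 1 TPM or more in both pools; the exception was Smad9. Of all genes 29.0%, and of protein-coding genes 61.8%, were likewise at 1 TPM or more in both pools. Because TPM is scaled for length, levels can be set beside each other between genes as far as the annotated transcript lengths hold. Gdf10, Id4 and Fst, described below, changed in TPM by 1.5-fold or more with the annotation. The median level of the 40 was 10.4 TPM, against 21.8 TPM for protein-coding genes at 1 TPM or more in both pools. In a bulk tissue a low level may come from few cells or from little RNA per cell, and these cannot be told apart. Together the 40 genes summed to 1408 TPM in pool 1 and 1368 TPM in pool 2. Id genes held 55.1% and 53.2% of that sum, the receptors 20.1% and 20.5%, the Smads 13.6% and 14.1%, the ligands 9.10% and 9.78%, and the antagonists 2.09% and 2.41%.

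**Figure D1:**
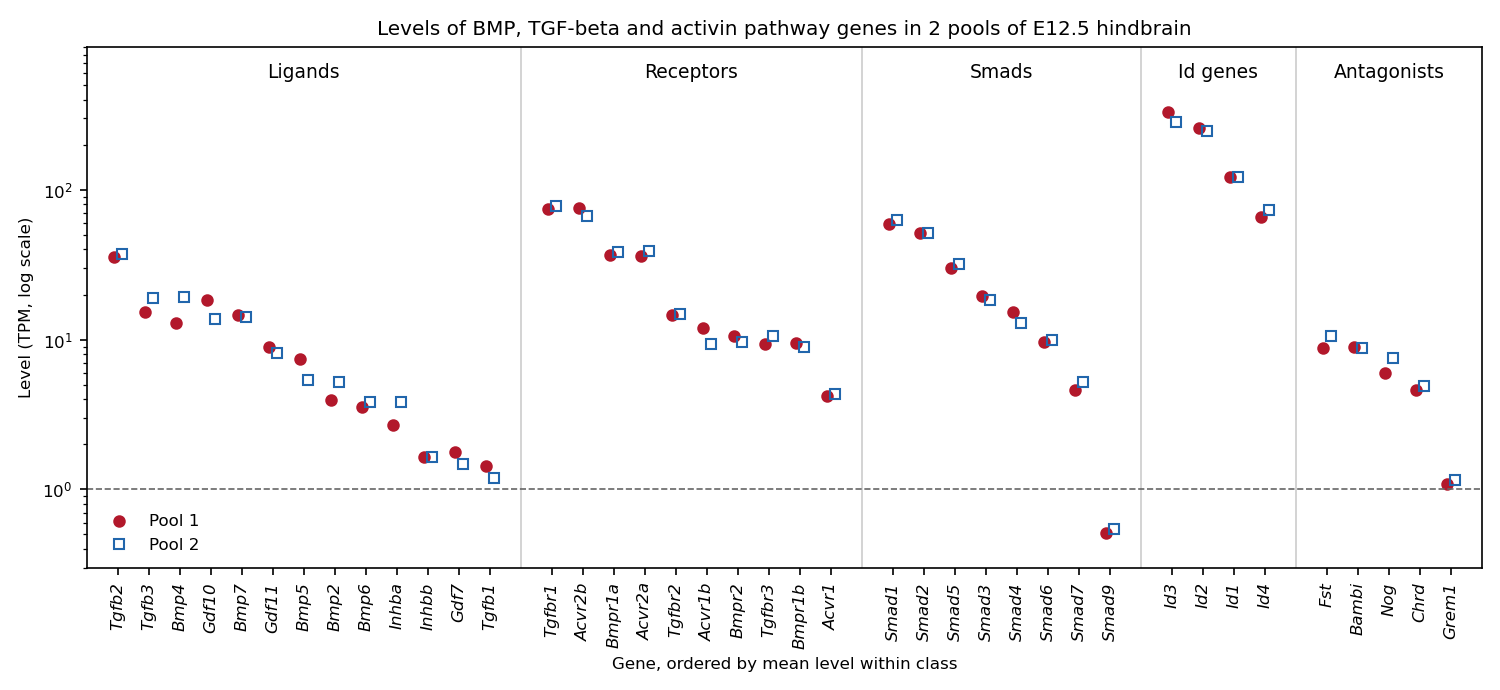
Level of each of the 40 genes in TPM on a log scale, with a filled circle for pool 1 and an open square for pool 2, ordered by mean level within class; the dashed line is 1 TPM. Smad9 lies below the line in both pools, and the 4 Id genes lie between 66.2 and 330.1 TPM.

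Among the ligands, Tgfb2 stood highest, apart from every other ligand in both pools, with the M21 annotation. With the older M4, Gdf10 overlapped it, at 40.3 and 30.0 TPM in pool 1 and pool 2 beside 37.2 and 39.1 TPM for Tgfb2. Tgfb2 (ENSMUSG00000039239.14, mm10 chr1:186622792-186705989, minus strand) encodes a TGF-beta that is secreted in a latent form, and it measured 35.4 TPM in pool 1 and 37.2 TPM in pool 2 (36.3 ± 1.23 TPM). It held 27.7% of the ligand sum in pool 1 and 27.8% in pool 2. Tgfb3, its close relative, measured 15.4 TPM in pool 1 and 18.9 TPM in pool 2. Tgfb1, the form best known from immune cells and platelets, was the lowest ligand, at 1.43 and 1.19 TPM from 62 and 48 expected counts. The 3 Tgfb genes thus spanned the whole range of the class, and neither pool changed their order.

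The coding forms of Tgfb2 differ by an 84-base segment in the part that encodes the prodomain, the piece that keeps the growth factor latent. The segment lies at mm10 chr1:186690721-186690804 on the minus strand and adds 28 codons in frame. It is shown because the forms with and without it made up the coding output of the highest ligand. Capitals mark the segment and lower case the 15 coding bases on each side.
Tgfb2 segment: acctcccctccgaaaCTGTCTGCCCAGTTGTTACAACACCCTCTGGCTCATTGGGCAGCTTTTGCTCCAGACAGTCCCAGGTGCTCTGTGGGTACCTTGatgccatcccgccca
The form with the segment, Tgfb2-206, has a coding length of 1326 bases, and the form without it, Tgfb2-201, one of 1242 bases. Transcripts with the segment held 32.3% of the complete coding TPM of the gene in pool 1 and 43.4% in pool 2 (37.9% ± 7.81), so the shorter protein form was the larger part in both pools. The TPM of the longer form was 6.64 in pool 1 and 11.3 in pool 2, and that of the shorter form 13.9 and 14.8. The transcripts of 3485 and 5116 bases also differ outside the segment, so these shares are estimates; the 449 and 706 expected counts of the longer protein form had posterior SDs of 54.2 and 62.9 in the authors' model.

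The BMP ligands summed to 44.3 TPM in pool 1 and 49.2 TPM in pool 2, a little under the Tgfb genes, which summed to 52.3 and 57.3 TPM. Bmp4 (ENSMUSG00000021835.15, mm10 chr14:46383520-46390669, minus strand), a dorsalising signal of the neural tube, measured 12.9 TPM in pool 1 and 19.2 TPM in pool 2 (16.0 ± 4.48 TPM), the widest spread of any ligand in TPM. Bmp7, which can pair with Bmp4 or Bmp2 in mixed dimers, measured 14.7 and 14.1 TPM. Bmp5, a close relative of Bmp7, was lower, with 7.47 TPM in pool 1 and 5.34 TPM in pool 2. Bmp2 and Bmp4, which are closely related, did not share a level, since Bmp2 measured 3.97 and 5.19 TPM. Bmp6, the remaining relative of Bmp5 and Bmp7, measured 3.54 and 3.86 TPM. Gdf7, a ligand that the roof plate makes, was among the lowest, at 1.78 and 1.48 TPM from 47 and 36 expected counts.

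Gdf10, a relative of Bmp3 that is kept apart here because it is no typical BMP, measured 18.4 TPM in pool 1 and 13.7 TPM in pool 2 (16.0 ± 3.30 TPM), so its mean matched that of Bmp4 while the pools stood in the opposite order. That match is one of the M21 annotation, since with M4 the means were 35.2 TPM for Gdf10 and 12.6 TPM for Bmp4. Gdf11, a relative of myostatin that signals through activin receptors, measured 8.88 and 8.18 TPM. The activin subunit genes were lower. Inhba, which encodes the subunit of activin A, measured 2.69 TPM in pool 1 and 3.84 TPM in pool 2. Inhbb, which encodes that of activin B, measured 1.64 and 1.65 TPM.

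From high to low the mean levels ran Tgfb2, Tgfb3, Bmp4, Gdf10, Bmp7, Gdf11, Bmp5, Bmp2, Bmp6, Inhba, Inhbb, Gdf7 and Tgfb1. The pool values overlapped for 5 of the 12 neighbouring pairs, namely Tgfb3 with Bmp4, Bmp4 with Gdf10, Gdf10 with Bmp7, Bmp6 with Inhba, and Inhbb with Gdf7. The order of neighbours among Tgfb3, Bmp4, Gdf10 and Bmp7 therefore did not stand out from the spread between pools. Tgfb3 and Bmp7, which are not neighbours, did not overlap, at 15.4 and 18.9 TPM beside 14.7 and 14.1 TPM in pool 1 and pool 2.

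**Figure D2:**
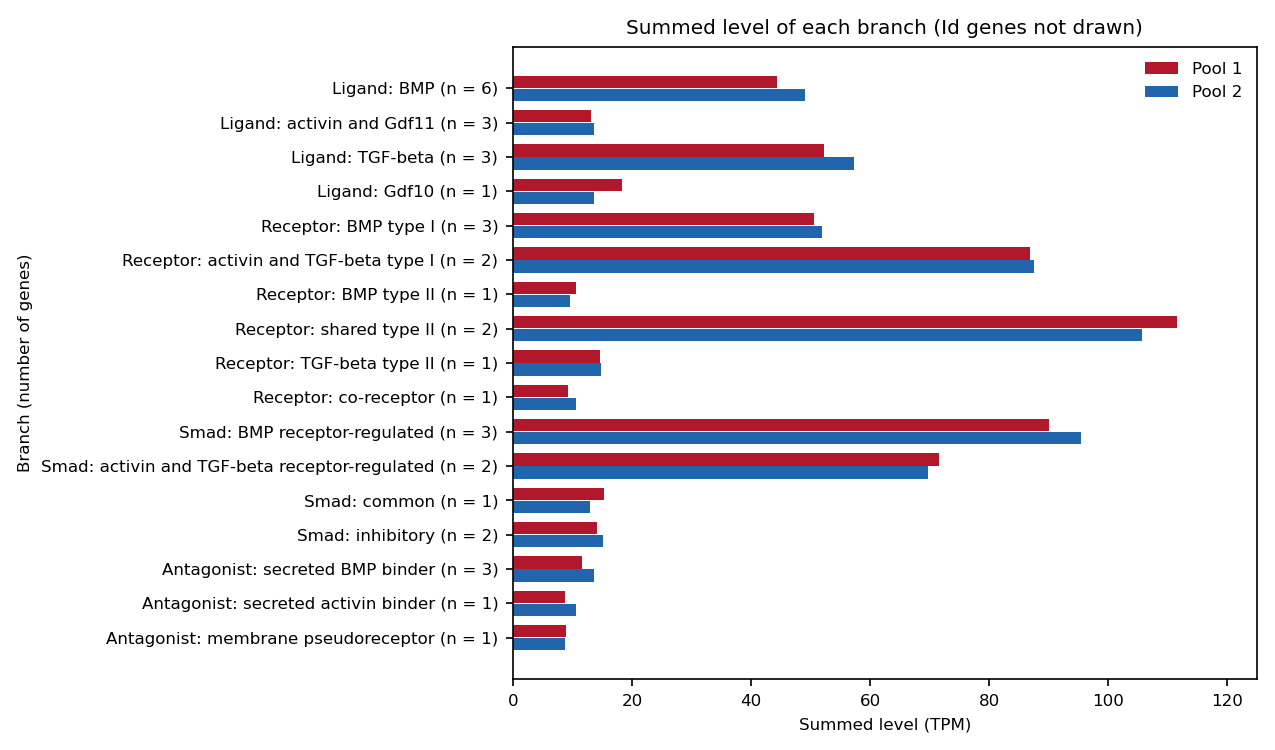
Summed level in TPM of each branch, with pool 1 above pool 2 and the number of genes in brackets; the Id genes are left out because their sum is several times that of any branch drawn. The shared type II receptors form the longest bars, with 112 TPM in pool 1 and 106 TPM in pool 2.

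Receptor transcripts outnumbered ligand transcripts, with a summed level 2.21 times that of the ligands in pool 1 and 2.09 times in pool 2. Tgfbr1 (ENSMUSG00000007613.15, mm10 chr4:47353222-47414931, plus strand), the type I receptor for TGF-betas, measured 74.9 TPM in pool 1 and 78.2 TPM in pool 2 (76.5 ± 2.34 TPM). Acvr2b (ENSMUSG00000061393.14, mm10 chr9:119402118-119434995, plus strand), a type II receptor that activins, Gdf11 and several BMPs share, measured 75.4 and 66.5 TPM (70.9 ± 6.33 TPM). These were the leading receptors, and which of the pair was higher differed between the pools. With M4, Tgfbr1 was higher in both, at 78.7 and 82.1 TPM beside 72.0 and 64.7 TPM for Acvr2b. Bmpr1a, a type I receptor for BMPs, measured 36.9 TPM in pool 1 and 38.7 TPM in pool 2. Acvr2a, the other shared type II receptor, stood at the same level, with 36.1 and 39.2 TPM.

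The remaining receptors were lower. Tgfbr2, the type II receptor that TGF-betas need, measured 14.6 TPM in pool 1 and 14.8 TPM in pool 2, well below its type I partner Tgfbr1 in both pools. Acvr1b, the type I receptor for activins, measured 12.0 and 9.33 TPM. Bmpr2, the type II receptor that is used by BMPs, measured 10.6 and 9.59 TPM. Bmpr1b, a BMP type I receptor that in mouse is known from neural and limb tissue, measured 9.44 and 8.87 TPM, below its relative Bmpr1a in both pools. Tgfbr3, a co-receptor with no kinase that presents TGF-beta2 to the other receptors, measured 9.29 and 10.5 TPM. Acvr1, a BMP type I receptor, was the lowest, at 4.22 and 4.33 TPM.

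By branch, the type I receptors of activins and TGF-betas summed to 86.9 TPM in pool 1 and 87.5 TPM in pool 2, and those of BMPs to 50.5 and 51.9 TPM, so the BMP type I sum was 0.581 times the other in pool 1 and 0.593 times in pool 2. The shared type II genes Acvr2a and Acvr2b together were at 10.5 times the level of Bmpr2 in pool 1 and 11.0 times in pool 2. All type II kinases together summed to about the level of all type I kinases, with ratios of 0.995 in pool 1 and 0.933 in pool 2. In the order of receptors, the pool values overlapped for 5 of 9 neighbouring pairs: Tgfbr1 with Acvr2b, Bmpr1a with Acvr2a, Acvr1b with Bmpr2, Bmpr2 with Tgfbr3, and Tgfbr3 with Bmpr1b. Between the leading pair, the middle pair, Tgfbr2, the lower group and Acvr1, the pool values did not overlap.

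Acvr2b and Tgfbr2 were each spread over receptor forms that differ in coding sequence. Acvr2b has a segment of 24 bases, or 8 codons, on the outer side of the membrane at mm10 chr9:119428201-119428224, and a segment of 72 bases, or 24 codons, on the inner side at mm10 chr9:119428353-119428424, both on the plus strand. Tgfbr2 has an in-frame segment of 75 bases, or 25 codons, in its extracellular part at mm10 chr9:116158271-116158345 on the minus strand. They are shown because no form of either receptor held nearly all of its coding TPM. Capitals mark each segment and lower case the 15 coding bases on each side.
Acvr2b outer segment: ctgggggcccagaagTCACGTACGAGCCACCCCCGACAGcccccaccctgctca
Acvr2b inner segment: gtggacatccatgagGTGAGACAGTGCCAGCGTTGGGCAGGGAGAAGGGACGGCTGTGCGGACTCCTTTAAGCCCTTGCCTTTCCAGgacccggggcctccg
Tgfbr2 segment: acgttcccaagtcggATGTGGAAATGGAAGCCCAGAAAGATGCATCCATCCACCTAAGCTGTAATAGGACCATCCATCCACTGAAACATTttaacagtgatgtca
The outer Acvr2b segment was in transcripts with 74.0% of the complete coding TPM in pool 1 and 74.9% in pool 2. The inner segment, which begins with GT and ends with AG like most introns, was in 69.2% and 68.7%. The form with both segments, Acvr2b-202, was the most abundant with M21, with 35.9% of the gene's TPM in pool 1 and 37.3% in pool 2. M4 holds 2 Acvr2b transcripts, and the top one differed between the pools. Acvr2b-201 led in pool 1 with 52.3%, and Acvr2b-202 in pool 2 with 50.8%. The shares of the segments were not computed with M4, so they rest on M21.

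The Tgfbr2 segment was in 35.8% of the complete coding TPM in pool 1 and 40.4% in pool 2, so the form without it was the larger part in both pools. In expected counts the order was the other way round. The longer transcript, Tgfbr2-202 of 8092 bases, had 837 and 879 expected counts, and the shorter one, Tgfbr2-201 of 3476 bases, had 633 and 549. These transcripts also differ outside the segment, so the reads that part them need not fall on it.

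The Smads fell in an order with no overlap between neighbours, 0 of 7 pairs. Smad1 (ENSMUSG00000031681.16, mm10 chr8:79338395-79399518, minus strand), a receptor-regulated Smad of the BMP branch, measured 59.5 TPM in pool 1 and 63.2 TPM in pool 2 (61.4 ± 2.56 TPM) and held 31.1% and 32.7% of the Smad sum. Smad5, its partner in the same branch, measured 30.0 and 31.8 TPM. Smad9, the remaining Smad of the BMP branch, measured 0.51 TPM in pool 1 and 0.54 TPM in pool 2 from 54 and 52 expected counts. Of the BMP branch, then, Smad1 and Smad5 carried nearly the whole sum.

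In the activin and TGF-beta branch, Smad2 measured 51.9 TPM in pool 1 and 51.2 TPM in pool 2 (51.5 ± 0.544 TPM), and Smad3 measured 19.7 and 18.5 TPM. Smad4, the partner that every receptor-regulated Smad binds, was lower than Smad1, Smad2, Smad3 and Smad5 in both pools, with 15.3 TPM in pool 1 and 13.01 TPM in pool 2. Receptor-regulated Smads of the BMP branch summed to 1.26 times those of the activin and TGF-beta branch in pool 1 and 1.37 times in pool 2. For the type I receptors the same comparison ran the opposite way.

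The inhibitory Smads block receptor signalling and are themselves known targets of it. Smad6, which acts mainly on the BMP branch, measured 9.59 TPM in pool 1 and 9.95 TPM in pool 2. Smad7, which acts on both branches, measured 4.58 and 5.23 TPM. Receptor-regulated Smads summed to 11.4 times the inhibitory Smads in pool 1 and 10.9 times in pool 2.

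Smad2 is made with or without a 90-base segment of 30 codons, which in the long form keeps the protein from binding DNA directly. Transcripts with the segment held 71.6% of the complete coding TPM in pool 1 and 67.6% in pool 2 (69.6% ± 2.80). The form with it in turn came from a transcript of 2410 bases, Smad2-201, with 24.6 and 21.8 TPM, and from one of 8089 bases, Smad2-205, with 11.3 and 11.6 TPM, which share a coding length of 1401 bases. The short form, Smad2-202, measured 14.2 and 13.9 TPM.

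The Id genes, which encode helix-loop-helix proteins with no DNA-binding part, were the most abundant class. Id3 (ENSMUSG00000007872.3, mm10 chr4:136143497-136145755, plus strand) measured 330.1 TPM in pool 1 and 286 TPM in pool 2 (308 ± 31.5 TPM) and ranked 446 among the 16100 genes at 1 TPM or more in both pools. Id2 measured 257 and 246 TPM and ranked 568. Id1 measured 122 TPM in both pools and ranked 1331. Id4, which in brain is known from neural progenitors, measured 66.2 and 73.9 TPM and ranked 2608. Neighbours did not overlap between pools for any of the 3 pairs, and Id3 held 42.6% of the Id sum in pool 1 and 39.2% in pool 2.

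The E proteins that Id proteins bind were at levels within the range of the Id genes. Tcf4 measured 162 TPM in pool 1 and 184 TPM in pool 2, Tcf12 measured 149 and 158 TPM, and Tcf3 measured 138 and 135 TPM. Together the 3 summed to 449 TPM in pool 1 and 478 TPM in pool 2, against 775 and 728 TPM for the 4 Id genes.

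The antagonists were the class with the lowest sum, and the ligands summed to 4.35 times the antagonists in pool 1 and 4.06 times in pool 2. Fst (ENSMUSG00000021765.9, mm10 chr13:114452290-114458951, minus strand) encodes follistatin, which binds activins, and measured 8.76 TPM in pool 1 and 10.6 TPM in pool 2 (9.68 ± 1.29 TPM). Bambi, a receptor-like membrane protein without a kinase, measured 9.00 and 8.73 TPM, and the order of Fst and Bambi differed between pools. Nog, which encodes noggin, a secreted protein that binds BMPs, measured 5.96 and 7.52 TPM. Chrd, which encodes the BMP-binding protein chordin, measured 4.64 and 4.93 TPM. Grem1, which encodes the BMP-binding protein gremlin, measured 1.08 and 1.15 TPM. Fst with Bambi was the only one of 4 neighbouring pairs that overlapped with M21. With M4, Fst measured 5.28 and 6.51 TPM, below Bambi at 9.45 and 9.16 TPM and below Nog at 6.28 and 7.92 TPM, and it overlapped Nog instead. The BMP ligands summed to 3.80 times the secreted BMP binders Nog, Chrd and Grem1 in pool 1 and 3.61 times in pool 2. This ratio and that of all ligands over the antagonists cover only the genes listed here. Twsg1, a partner of chordin in binding BMPs outside the 5 antagonists, measured 77.6 TPM in pool 1 and 82.6 TPM in pool 2. Both values were above the BMP ligand sums of 44.3 and 49.2 TPM.

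Follistatin is known in a long form with an acidic tail and a short form without it that binds cell-surface heparan sulfate. The annotated segment of 80 coding bases at mm10 chr13:114453426-114453505 on the minus strand encodes the end of the long form. It is shown because the most abundant Fst transcript differed between the pools. Capitals mark the segment, which runs to the last codon before the stop, and lower case the 15 coding bases before it.
Fst segment: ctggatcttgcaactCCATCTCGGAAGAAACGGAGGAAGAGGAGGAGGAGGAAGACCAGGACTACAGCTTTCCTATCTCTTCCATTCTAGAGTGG
Long-form transcripts held 58.5% of the complete coding TPM in pool 1 and 63.5% in pool 2 (61.0% ± 3.54). The short form, Fst-202 with a coding length of 951 bases, led in pool 1 with 32.4% of the gene's TPM and had 30.2% in pool 2. The long form Fst-205, with 1029 coding bases, had 29.2% in pool 1 and led in pool 2 with 36.3%. The whole gene had 297 expected counts in pool 1 and 351 in pool 2, and Fst-205 had 51.8 and 71.8 of them, with a posterior SD of 12.6 and 14.5 in the authors' model.

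**Figure D3:**
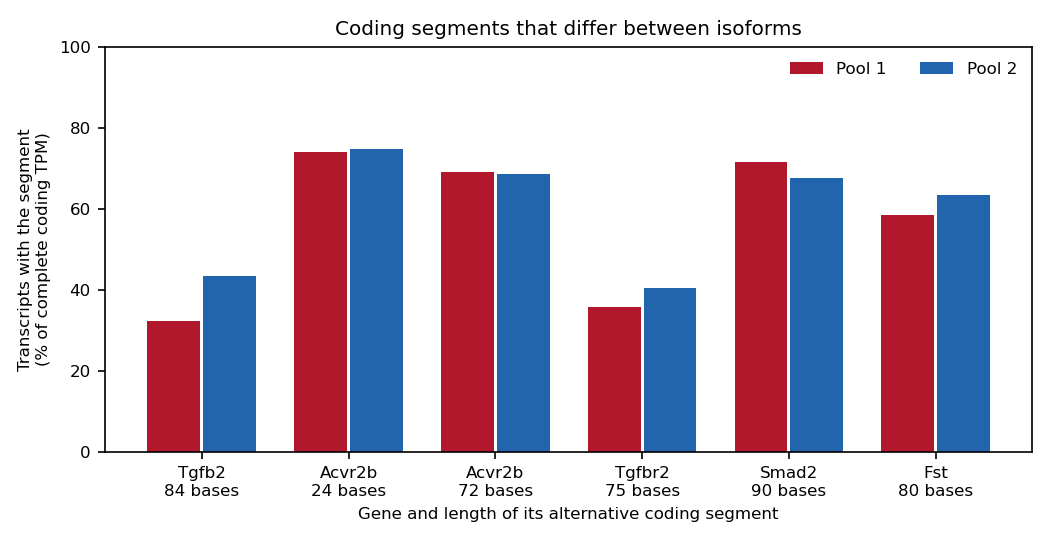
Percent of the complete coding TPM of Tgfb2, Acvr2b, Tgfbr2, Smad2 and Fst that was in transcripts with the alternative coding segment, with pool 1 left of pool 2. The bars of Acvr2b, Smad2 and Fst lie above 50% in both pools, and those of Tgfb2 and Tgfbr2 below it.

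Between the pools, none of the 39 genes with 50 or more mean expected counts differed by 1.5-fold or more, where 3.42% of all 14989 genes under the same rule did. The ratio of pool 1 over pool 2 was taken on scaled expected counts, with a 95% exact binomial interval that covers counting error only. Of the 39, 16 were higher and 23 lower in pool 1. The median log2 ratio was -0.05, beside a median of all genes within 0.01 of 0. The median size of the log2 ratio, without its sign, was 0.11 for these genes and 0.10 for all genes, so as a group they varied about as much as the rest. For 22 of the 39 the counting interval, which narrows as counts grow, left out equal levels, as it did for 35.0% of all genes under the same rule.

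The widest ratios were among the ligands. Bmp4 had 353 expected counts in pool 1 and 473 in pool 2, a log2 ratio of -0.53 (interval -0.73 to -0.33). Bmp5 had 535 and 366 counts, a log2 ratio of 0.44 (0.25 to 0.64), so it stood higher in pool 1 while Bmp4 stood lower. Gdf10 had 1873 and 1288 counts, a log2 ratio of 0.43 (0.33 to 0.54). Bmp2 and Tgfb3 were lower in pool 1, with log2 ratios of -0.37 (-0.61 to -0.14) and -0.29 (-0.41 to -0.16). Tgfb2 was also lower in pool 1 at -0.22 (-0.31 to -0.13). The BMP ligands thus did not move together. For Gdf7, Tgfb1 and Inhba the counts were too low to tell the pools apart, with log2 ratios of 0.27 (-0.38 to 0.95), 0.26 (-0.30 to 0.84) and -0.29 (-0.68 to 0.10).

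Outside the ligands, Acvr1b was higher in pool 1 with a log2 ratio of 0.37 (0.23 to 0.51), and Smad4 was higher with 0.28 (0.14 to 0.42). Id3 was higher in pool 1 at 0.22 (0.17 to 0.27) and Id4 lower at -0.15 (-0.20 to -0.09). The secreted antagonists Fst and Nog were lower in pool 1, with -0.35 (-0.58 to -0.12) and -0.32 (-0.61 to -0.04). In the same direction, the skeletal muscle markers had a median log2 ratio of -2.28, the cartilage markers -0.76, the hindbrain identity markers -0.39, the mesenchyme and meninges markers -0.27 and the roof plate and choroid plexus markers -0.23. The forebrain markers, 1 of 5 at 1 TPM or more in both pools, had -0.55. Immediate early and heat shock genes had -0.26, neuron markers -0.11, microglia markers -0.05 and endothelial markers -0.03. In the other direction stood the surface epithelium markers at 0.64, the 5 erythroid markers at 0.37, with summed levels of 10401 TPM in pool 1 and 8095 TPM in pool 2, and the progenitor markers at 0.11. The part of these tissues and gene lists in the ratios of the pathway genes was not tested. The ratios also rest on scaling by the bulk of genes. With spike-in totals in its place, the median of all genes moved to a log2 ratio of 0.37. Of the 39 genes, 37 were then higher in pool 1, 6 of them by 1.5-fold or more. The directions above are thus relative to the bulk of genes. The matching shares of all genes were not computed with spike-in totals, so neither count sets these genes apart.

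**Figure D4:**
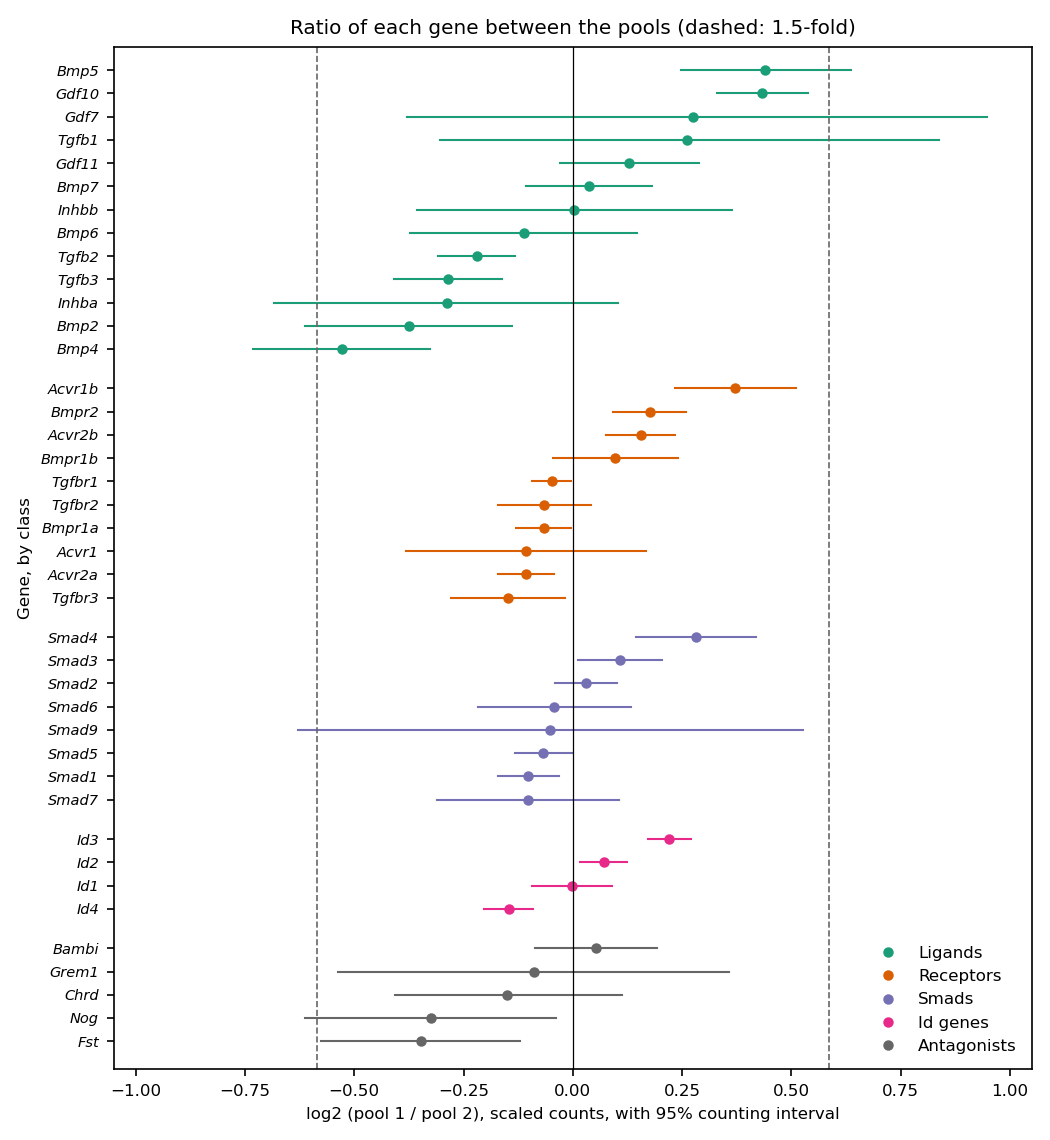
Log2 ratio of pool 1 over pool 2 for each gene from scaled expected counts, coloured by class, with the 95% counting interval as a line and 1.5-fold as dashed lines. All 40 points lie between the dashed lines, from -0.53 for Bmp4 to 0.44 for Bmp5.

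Of the 39 genes at 1 TPM or more, 10 had 1 annotated transcript, against 19.5% of all such genes. A top transcript with 90% or more of the gene's TPM in both pools was found in 25 of the 39, against 34.1% of all such genes. The top transcript held under 60% in a pool, or differed between pools, in 7 of the 39 genes at 1 TPM or more, where 38.0% of all such genes met that rule. The 7 were Bmp4, Tgfb2, Acvr1, Acvr2b, Tgfbr2, Smad2 and Fst, and with M21 Fst alone had a different top transcript in each pool. With M4, the top transcript of Acvr2b differed between the pools. For Acvr1 the share of Acvr1-203 was 52.0% in pool 1 and 80.0% in pool 2, and that of Acvr1-204 was 37.4% and 17.3%. Both have a coding length of 1527 bases, and their expected counts of 123 and 178 for Acvr1-203 had posterior SDs of 42.2 and 20.2 in the authors' model.

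Transcripts annotated as retained introns took part of the level of several genes. They held 29.7% of the TPM of Bmp4 in pool 1 and 36.1% in pool 2, 37.2% and 27.5% of that of Tgfb2, 28.0% and 25.2% of Bmp7, and 33.1% and 20.2% of Chrd. For Bmp4 most of this share was in Bmp4-204, a transcript of 258 bases with 3.36 TPM in pool 1 and 5.18 TPM in pool 2 from 10.7 and 15.2 expected counts. Those few reads on a short transcript gave 26.1% of the gene's TPM in pool 1 and 27.0% in pool 2. The coding transcript Bmp4-201 measured 7.09 TPM in pool 1 and 12.3 TPM in pool 2, and Bmp4-202, with the same coding length of 1224 bases, measured 1.97 TPM in pool 1 and was listed at 0 in pool 2.

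The same reads were also deposited as counted on the older GENCODE M4. Of the 38 genes with 50 or more mean counts in both annotations, 3 had a mean TPM that differed by 1.5-fold or more, where 5.93% of all 14261 genes did (4.71% higher and 1.22% lower with M21). For 29 of the genes the ratio of M21 over M4 lay between 0.9 and 1, and the share of all genes in that range was not computed. The median ratio was 0.950, beside 0.952 for all genes. Gdf10 measured 18.4 and 13.7 TPM with M21 in pool 1 and pool 2, against 40.3 and 30.0 TPM with M4, a ratio of 0.455. Its expected counts were nearly the same, with a ratio of 1.02, while its length was 5210 bases with M21 and 2507 bases with M4.

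Id4 measured 66.2 and 73.9 TPM with M21 in pool 1 and pool 2, against 118 and 127 TPM with M4, a ratio of 0.572. Its length was 3849 bases with M21 and 1660 with M4, and its expected counts were 1.44 times as high with M21. With M4, Id4 stood close under Id1, which measured 128 and 129 TPM. Fst stood the other way round, with 8.76 and 10.6 TPM with M21 against 5.28 and 6.51 TPM with M4, a ratio of 1.64, and 1.35 times the expected counts. M4 holds 1 Fst transcript where M21 holds 6. Expected counts were also 1.33 to 1.39 times as high with M21 in Bmp6, Tgfb1, Smad2 and Acvr2b, although their TPM stayed within the limit. The counts of 30 genes were the same within 1%. The share of all genes with such counts was not computed, so that number does not set these genes apart.

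**Figure D5:**
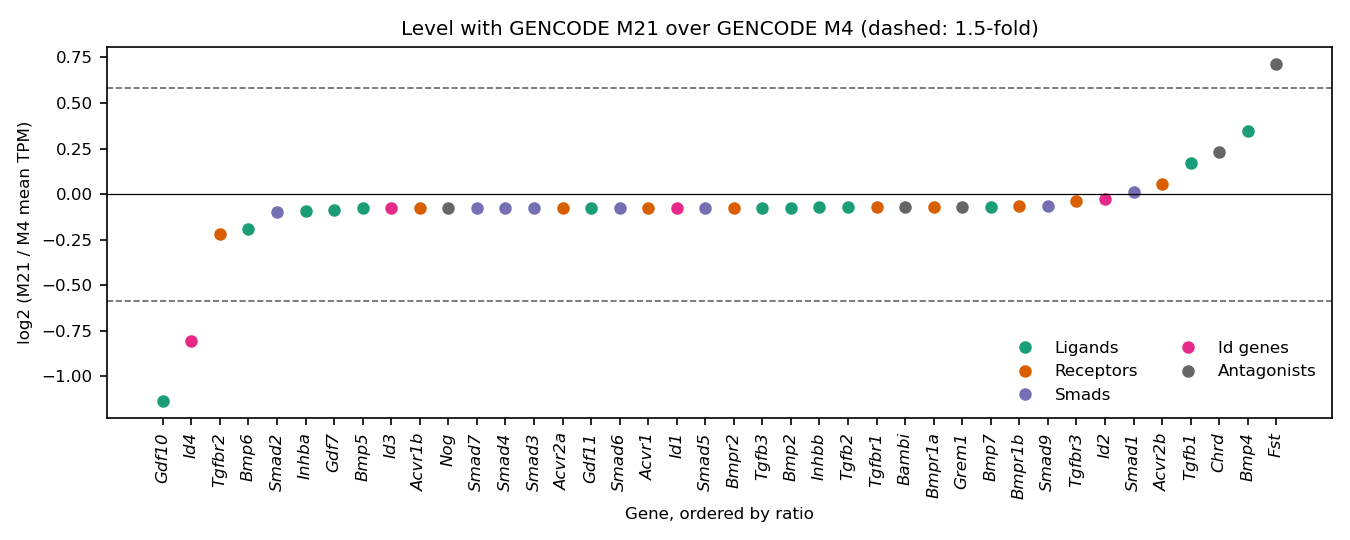
Log2 ratio of the mean TPM with GENCODE M21 over that with GENCODE M4 for each gene, coloured by class, with 1.5-fold as dashed lines. Gdf10 and Id4 lie below the lower line and Fst above the upper one, and most other genes form a flat row just under 0.

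The exons of 12 of the 40 genes overlap those of another annotated gene, 10 of them on the opposite strand, and no source used here says whether the counting was stranded. The partner was abundant in 2 cases. Bmp6, with 3.54 and 3.86 TPM, shares 224 bases with Txndc5 at 120 TPM in both pools. Acvr2a, at 36.1 and 39.2 TPM, shares 446 bases with Orc4, which measured 83.7 and 99.6 TPM. The levels of Bmp6 and Acvr2a are uncertain to that extent. In the authors' model, the posterior SD of the gene's count was 0 in both pools for 31 of the 40 genes and at most 0.809% of the count for the others. The share over all genes was not computed for the overlaps or for an SD of 0, so neither count sets these genes apart.

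Of 79 further genes of the pathway, 55 were at 1 TPM or more in both pools, where 61.8% of protein-coding genes and 29.0% of all genes were. They were unevenly spread over the classes: 5 of 20 further ligands, 4 of 8 receptors and co-receptors, 18 of 21 extracellular regulators, 15 of 16 intracellular regulators, 10 of 11 further targets and all 3 E proteins. Among the ligands the highest was Inha, the inhibin subunit that opposes activins when paired with Inhba or Inhbb, with 6.69 TPM in pool 1 and 7.07 TPM in pool 2. Gdf5 followed with 2.91 and 2.76 TPM. Bmp10 was at 0 in both pools, and Bmp15 and Bmp8a were under 1 TPM. Of the further receptors, the BMP co-receptors Rgmb and Rgma measured 109 and 120.1 TPM and 42.8 TPM in both pools, above most of the 10 receptors described here. Eng, a co-receptor of endothelial cells, measured 24.5 and 24.6 TPM, while Acvr1c and Amhr2 were under 1 TPM and Cfc1 was at 0.

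Several secreted regulators outside the 5 antagonists were more abundant than those. Fstl1, a relative of follistatin, measured 254 TPM in pool 1 and 264 TPM in pool 2. Twsg1, a partner of chordin in binding BMPs, measured 77.6 and 82.6 TPM, and Thbs1, which can release TGF-beta from its latent form, 69.5 and 84.2 TPM. Cer1, Chrdl2 and Sost were under 1 TPM. Inside the cell, Fkbp1a, which holds type I receptors inactive, measured 413 and 427 TPM. The phosphatase gene Ppm1a measured 68.3 and 67.9 TPM, and the Smad corepressor gene Tgif1 measured 51.8 and 52.8 TPM. Foxh1, a partner of Smad2 in nodal signalling, was under 1 TPM. Of the further targets, the homeobox gene Msx1 measured 74.1 and 90.7 TPM, Msx2 measured 46.7 and 50.1 TPM, and the TGF-beta-induced matrix gene Tgfbi measured 50.7 and 55.5 TPM.

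Between the pools, 4 of the 57 further genes with 50 or more mean counts passed 1.5-fold, 3 of them higher and 1 lower in pool 1, where 1.63% of all genes were higher and 1.79% lower. Lmx1a, a roof plate transcription factor, measured 12.6 TPM in pool 1 and 7.91 TPM in pool 2 (log2 ratio 0.68). The list of roof plate and choroid plexus markers had a median log2 ratio of -0.23, in a range from -0.51 to 0.03. Gdf7, a ligand that the roof plate makes, had 0.27 with an interval of -0.38 to 0.95. Gdf6, a relative of Gdf7, measured 1.30 and 0.46 TPM (log2 ratio 1.496, interval 0.89 to 2.17). Gdf1 measured 3.41 and 1.67 TPM (1.03), with a posterior SD of 24.0 and 17.8 on its 85.2 and 38.4 expected counts. Mstn, which encodes myostatin, a growth factor of skeletal muscle, measured 0.56 TPM in pool 1 and 2.19 TPM in pool 2 (-1.94), and the skeletal muscle markers were lower in pool 1 as well.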

How the data were processed

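PolyA-selected RNA from 10 ng per library, primed with oligo-dT and cut by Nextera tagmentation, was measured in the 2 pools, per the labels. The members and gene lists were chosen with earlier results of these data known. The deposited tables, on mm10 with GENCODE M21 and with M4 per the read-me files, give expected counts (not scaled for depth), TPM (over all entries, spike-ins included) and FPKM per gene and transcript. The deposited isoform percent gives each transcript's part of its gene, but shares were computed here from transcript TPM. The deposited posterior SD of each count is a score from the authors' model. The program is not named in the sources used here. The labels mention no molecular identifiers, so copies of the same molecule may have been counted as separate reads. The intervals cover the counting error of reads only and may be too narrow.

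M21 TPM was the main measure, without spike-in and tRNA entries. Pool ratios used expected counts scaled by TMM (edgeR 4.0.16) with a prior count of 0.5, and Clopper-Pearson intervals on rounded counts. The steps were tested on simulated data. Alternatives were DESeq2 1.42.0 size factors, total counts, spike-in totals, M4, FPKM, other limits and leaving out a pool. Named genes were all 40 members, and of each class of further pathway genes the 3 highest, up to 3 under 1 TPM and those past 1.5-fold. A gene that this rule names is not reported here. Values were computed with R 4.3.3, scipy 1.17.1, numpy 2.4.6, pandas 2.3.3 and Python 3.11.15. Coding segments were read from GENCODE M21 transcripts.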

Additional observations from a re-analysis of the deposited data

How the results depend on the processing

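No paired analysis was possible because the pools form 1 group. The count of 39 genes at 1 TPM or more was 39 with M4 and with either pool alone, 40 at 0.5 TPM, 29 at 5 TPM and 35 in FPKM. With M4 in place of M21, the ligand share was 10.1% where it was 9.44%, the receptor share 19.4% where it was 20.3%, the Smad share 13.3% where it was 13.9% and the antagonist share 1.84% where it was 2.25%. Also with M4, Tgfb2 held 25.1% of the ligands where it held 27.7%, Smad1 30.5% of the Smads where it held 31.9% and Fst 21.3% of the antagonists where it held 31.0%. No gene passed 1.5-fold between pools with DESeq2 size factors, total gene counts, a prior count of 5, M4 or other count limits. With spike-in totals 6 did (Bmp5, Tgfb1, Gdf10, Acvr1b, Smad4 and Id3), and the share of all genes that did was not computed. Between annotations, 0 genes passed in expected counts and 1 at 2-fold, where 3 passed in TPM. The isoform count of 7 was 3 with M4 and 4 with a 50% limit. With either pool alone, the ligand share was 9.10% to 9.78%, the receptor share 20.1% to 20.5%, the Smad share 13.6% to 14.1%, the Id share 53.2% to 55.1%, the antagonist share 2.09% to 2.41%, the count of further genes 56 to 57 and the isoform count 5 to 6. A pool ratio needs both pools, so leaving out a pool gave no value for it. With 2 pools, the SD is itself poorly known.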
